A study of Mus musculus with 20 samples.

Results

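The transcripts described here encode 9 proteins of the liver, most of them secreted into blood: Alb, Mup3, Mup5, Apoa1, Apoa2, Ttr, Fabp1, Ahsg and Trf. They were chosen by name, because their levels differed between groups of mouse hearts measured on these same arrays and because an admixture of liver RNA would be expected to move them together. Every probe set, a group of short probes for 1 transcript on an Affymetrix murine array, whose only gene symbol in the platform annotation was one of the 9 was taken. This gave 11 probe sets for 8 genes, of 8251 genes with such a probe set and 12488 probe sets in all. Trf was not analysed here. Since the levels of the 4 groups led to the choice, they are given below as a description and without a test.

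The hearts came from 20 male mice of the B6C3F1 cross of the strains C57BL/6 and C3H, in 4 groups of 5 with 1 array for each animal. At 30 months of age there were mice fed 1000 mg/kg alpha-tocopherol, mice given both alpha-tocopherol and gamma-tocopherol, 500 mg/kg of each, and old controls on the control diet. Both supplements began at 15 months of age. The fourth group, the young controls, had the control diet and were 5 months old. Old controls 1 and 4 are labelled as hybrids without the mark of the first generation. Alpha- and gamma-tocopherol are forms of vitamin E, and the question of the study was how they and age alter transcripts of the heart. Heart tissue holds many cell types, and in such bulk samples fewer cells of a type and less RNA per cell cannot be told apart.

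Hepatocytes make most of the proteins of blood plasma and export them through the secretory pathway. Their genes are switched on by a set of liver transcription factors, among them HNF1, HNF4 and C/EBP, and transcripts such as albumin mRNA are among the most abundant in liver and scarce in heart muscle. Vitamin E itself reaches the liver in lipoproteins and is returned to blood from there, with alpha-tocopherol kept in preference to gamma-tocopherol.

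The promoters of Alb and Fabp1 are shown because Alb had the widest range and Fabp1 the lowest value among the members and because both hold matches to liver factor motifs, and that of Apoa1 because its transcript followed Alb most closely among the secreted members outside the Mup family. Each runs 5′ to 3′ on the strand of the gene, from 250 bases before its start to 50 bases from it on, taken from RefSeq for the build GRCm38.p6. They lie at chr5:90460620-90460919, chr6:71199629-71199928 and chr9:46228380-46228679, all on the plus strand. Capitals mark matches, on either strand, to GTTAAT (part of the HNF1 motif), TTGCNNAA (C/EBP) and TATAAA (the box near the start of many genes). The HNF4 motif CAAAGTCCA was searched too and had no match in these windows.
Alb: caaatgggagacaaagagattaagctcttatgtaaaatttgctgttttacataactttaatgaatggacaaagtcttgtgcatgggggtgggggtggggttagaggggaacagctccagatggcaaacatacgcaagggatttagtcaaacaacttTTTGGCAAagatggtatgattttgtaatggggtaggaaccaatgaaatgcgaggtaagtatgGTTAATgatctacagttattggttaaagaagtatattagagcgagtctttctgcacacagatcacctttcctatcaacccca
Fabp1: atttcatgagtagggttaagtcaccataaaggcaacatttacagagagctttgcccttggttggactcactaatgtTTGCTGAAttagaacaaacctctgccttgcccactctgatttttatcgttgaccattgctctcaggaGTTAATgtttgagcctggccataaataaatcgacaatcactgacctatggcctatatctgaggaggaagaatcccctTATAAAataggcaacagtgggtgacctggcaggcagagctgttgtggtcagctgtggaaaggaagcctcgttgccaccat
Apoa1: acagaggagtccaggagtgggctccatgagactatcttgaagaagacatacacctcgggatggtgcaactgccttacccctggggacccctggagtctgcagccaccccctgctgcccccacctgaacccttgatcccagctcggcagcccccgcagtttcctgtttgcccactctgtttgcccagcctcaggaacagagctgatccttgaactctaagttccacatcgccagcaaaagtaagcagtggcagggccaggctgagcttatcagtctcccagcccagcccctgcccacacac
With the start counted as base 0, the Alb promoter holds the C/EBP match from base -94 and the HNF1 match from base -32. In the Fabp1 promoter the C/EBP match begins at -174, the HNF1 match at -107 and the TATAAA match at -30. Of 32851 RefSeq promoters of this length, 7.1% hold GTTAAT, 10.8% TTGCNNAA, 13.6% TATAAA and 0.475% CAAAGTCCA. The Ahsg window holds 1 C/EBP match, from base -32, 1 of the Apoa2 windows holds 2 and the other holds 1 TATAAA match, and the windows of Apoa1 and Mup3 hold none of these letters. A match is a description of the sequence and says nothing about binding in these hearts.

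The arrays carried the mark of heart tissue in every group. Myh6, the cardiac myosin heavy chain, lay between 64545 and 111896 in all 20 hearts, and Tnnt2, cardiac troponin T, between 70690 and 109497. Hnf4a, a transcription factor of hepatocytes, lay between 40.1 and 221 and did not pass the filter on dim probe sets. Young control 3 stood apart: 13 of 17 T cell probe sets had their highest value there, and Cd3e of the T cell receptor complex had 3613 on that array, against 96.4 to 233 on the 19 others. It is kept below, and correlations with Alb are also given without it. The level of the hybridization control probe sets, which report on spiked RNA, was 13.32 to 13.78 (log2) in alpha-tocopherol hearts and 12.55 to 12.92 in old controls. That of the 18S ribosomal probe sets was 12.21 to 12.74 in alpha-tocopherol hearts and 10.16 to 11.23 in old controls, so that neither measure overlapped between these groups.

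Alb encodes albumin, the main protein of blood plasma. Its intensity, the deposited brightness on a linear scale, was 231, 109, 139, 55.6 and 151 in alpha-tocopherol hearts 1 to 5 and 103, 120.4, 184, 117 and 641 in alpha- plus gamma-tocopherol hearts. It was 1928, 2973, 13004, 7125 and 4808 in old controls and 2259.7, 1047, 5743, 1939.8 and 130.3 in young controls. All 10 supplemented hearts lay below all 5 old controls, and the young controls spanned both ranges, with young control 5 among the supplemented hearts. In the median alpha-tocopherol heart Alb stood at the 20.9th percentile of all probe sets of its array and in the median alpha- plus gamma-tocopherol heart at the 19.7th, against the 91.0th in old controls and the 77.4th in young controls. The mean intensity was 137 ± 64.0 in alpha-tocopherol hearts, 233 ± 230.3 in alpha- plus gamma-tocopherol hearts, 5968 ± 4401 in old controls and 2224 ± 2135 in young controls (SD, n = 5 each). On the scale log2(intensity + 58), which understates differences of dim probe sets, Alb differed by -4.71 ± 0.64 between alpha-tocopherol hearts and old controls, by -4.33 ± 0.64 between alpha- plus gamma-tocopherol hearts and old controls, and by 1.79 ± 0.64 between old and young controls (difference ± SE from the fit over all 20 arrays). With the level of the hybridization controls as a covariate the first of these was -3.15 ± 1.07, and with the 18S level it was -5.57 ± 1.00.

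Apoa1 and Apoa2 encode the main proteins of high density lipoprotein. Apoa1 had 230.2, 219, 191, 173 and 159 in alpha-tocopherol hearts and 184, 133, 278, 122 and 229 in alpha- plus gamma-tocopherol hearts, against 202, 442, 3680.1, 293 and 1172 in old controls and 692, 196, 1497, 202 and 229 in young controls. High values were those of old controls 3 and 5 and young control 3, while the lowest old control lay within the range of both supplemented groups. Apoa1 differed from old controls by -1.54 ± 0.56 in alpha-tocopherol hearts and by -1.61 ± 0.56 in alpha- plus gamma-tocopherol hearts, and these values were -0.95 ± 0.40 and -1.02 ± 0.40 without old control 3 and young control 3. The 2 Apoa2 probe sets disagreed. The dimmer had 114, 97.5, 182, 125 and 178 in alpha-tocopherol hearts and 109, 106, 130.0, 115 and 114 in alpha- plus gamma-tocopherol hearts, against 128, 216, 297, 602 and 120.2 in old controls and 109, 75.0, 446, 395 and 135 in young controls. Its high values lay on old control 4 and on young controls 3 and 4. The brighter had medians of 514 and 379 in the supplemented groups, against 389 in old controls and 374 in young controls, and its differences from old controls were 0.01 ± 0.36 with alpha-tocopherol and -0.03 ± 0.36 with both tocopherols.

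Ahsg encodes fetuin-A, a plasma glycoprotein that binds calcium phosphate, and Ttr encodes transthyretin, which carries thyroid hormone and retinol-binding protein. Ahsg had 199.9, 262, 259, 181 and 234 in alpha-tocopherol hearts and 646, 272, 263, 214 and 177 in alpha- plus gamma-tocopherol hearts, against 554, 623, 857, 848 and 872 in old controls and 893, 216, 912, 704 and 613 in young controls. Alpha-tocopherol hearts lay below every old control, and 1 alpha- plus gamma-tocopherol heart lay within the old controls. The differences from old controls were -1.49 ± 0.32 with alpha-tocopherol and -1.21 ± 0.32 with both. Within the old controls Ahsg spanned 1.57-fold and Alb 6.74-fold. Ttr had 134, 683, 139, 353 and 454 in alpha-tocopherol hearts and 342, 119, 348, 279 and 232 in alpha- plus gamma-tocopherol hearts, against 171, 478, 628, 623 and 392 in old controls and 500.0, 516, 712, 453 and 600.1 in young controls. All groups overlapped with the old controls, and the differences were -0.43 ± 0.36 with alpha-tocopherol and -0.64 ± 0.36 with both tocopherols.

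Mup3 and Mup5 belong to the major urinary proteins, small pheromone carriers that the mouse liver releases for excretion in urine. Their probe sets carry the mark of probes shared by a gene family, so the members of the family cannot be told apart. The Mup5 probe set had 348, 89.1, 161, 106 and 286 in alpha-tocopherol hearts and 515, 430.4, 138, 279 and 1091 in alpha- plus gamma-tocopherol hearts, against 431, 929, 1617, 1118 and 1672 in old controls and 2248, 866, 1249, 646 and 586 in young controls. Here alpha-tocopherol hearts lay below all controls, while alpha- plus gamma-tocopherol hearts overlapped with them. Of the 2 Mup3 probe sets the brighter had medians of 330.3 and 353 in the supplemented groups, against 946 in old controls and 722 in young controls. The dimmer had 299.8, 684, 144, 105 and 84.2 in alpha-tocopherol hearts and 86.9, 116, 94.2, 79.5 and 95.4 in alpha- plus gamma-tocopherol hearts, against 747, 829, 1370.0, 1181 and 2012 in old controls and 1594, 478, 944, 353 and 383 in young controls. Both supplemented groups lay below the old controls on either Mup3 probe set. The difference from old controls with alpha-tocopherol was -2.22 ± 0.44 for Mup5 and -1.62 ± 0.36 and -2.21 ± 0.42 for the brighter and dimmer Mup3 probe sets, and with both tocopherols it was -1.25 ± 0.44, -1.68 ± 0.36 and -3.0 ± 0.42. With the level of the hybridization controls as a covariate the Mup5 difference with alpha-tocopherol was -1.25 ± 0.74, and with the 18S level -3.10 ± 0.66. The highest array was young control 1 for Mup5 and old control 5 for both Mup3 probe sets, where Alb was highest on old control 3.

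Fabp1 encodes the fatty acid binding protein of hepatocyte cytoplasm, which is also made in the intestine, and is the one member that is not secreted. Of its 2 probe sets, the one dimmer on average had 59.2, 56.7, 32.3, 40.6 and 28.9 in alpha-tocopherol hearts and 24.5, 30.5, 24.2, 43.6 and 27.1 in alpha- plus gamma-tocopherol hearts, against 56.9, 314, 888, 518 and 609 in old controls and 210.5, 34.1, 285, 107 and 43.1 in young controls. Old control 1 was as dim as the supplemented hearts, and the 4 other old controls lay above all of them. The differences from old controls were -2.11 ± 0.43 with alpha-tocopherol and -2.31 ± 0.43 with both tocopherols, and old controls exceeded young controls by 1.36 ± 0.43. A pseudocount of 200 in place of 58 gave -1.32 with alpha-tocopherol and -1.40 with both. The brighter probe set ran the other way, with medians of 285 and 406 in the supplemented groups, against 201 in old controls and 314 in young controls, and differences of 0.38 ± 0.26 and 0.76 ± 0.26 from old controls. Markers of enterocytes, the other source of Fabp1, summed over 12 probe sets to 7678 to 11290 in alpha-tocopherol hearts and 7157 to 7657 in alpha- plus gamma-tocopherol hearts, against 3857 to 4853 in old controls and 6410 to 8691 in young controls, and Fabp2, the intestinal form, had medians of 52.6 in alpha-tocopherol hearts, 57.5 in alpha- plus gamma-tocopherol hearts, 169 in old controls and 45.5 in young controls. The part of enterocyte transcripts in these values was not tested.

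**Figure D1:**
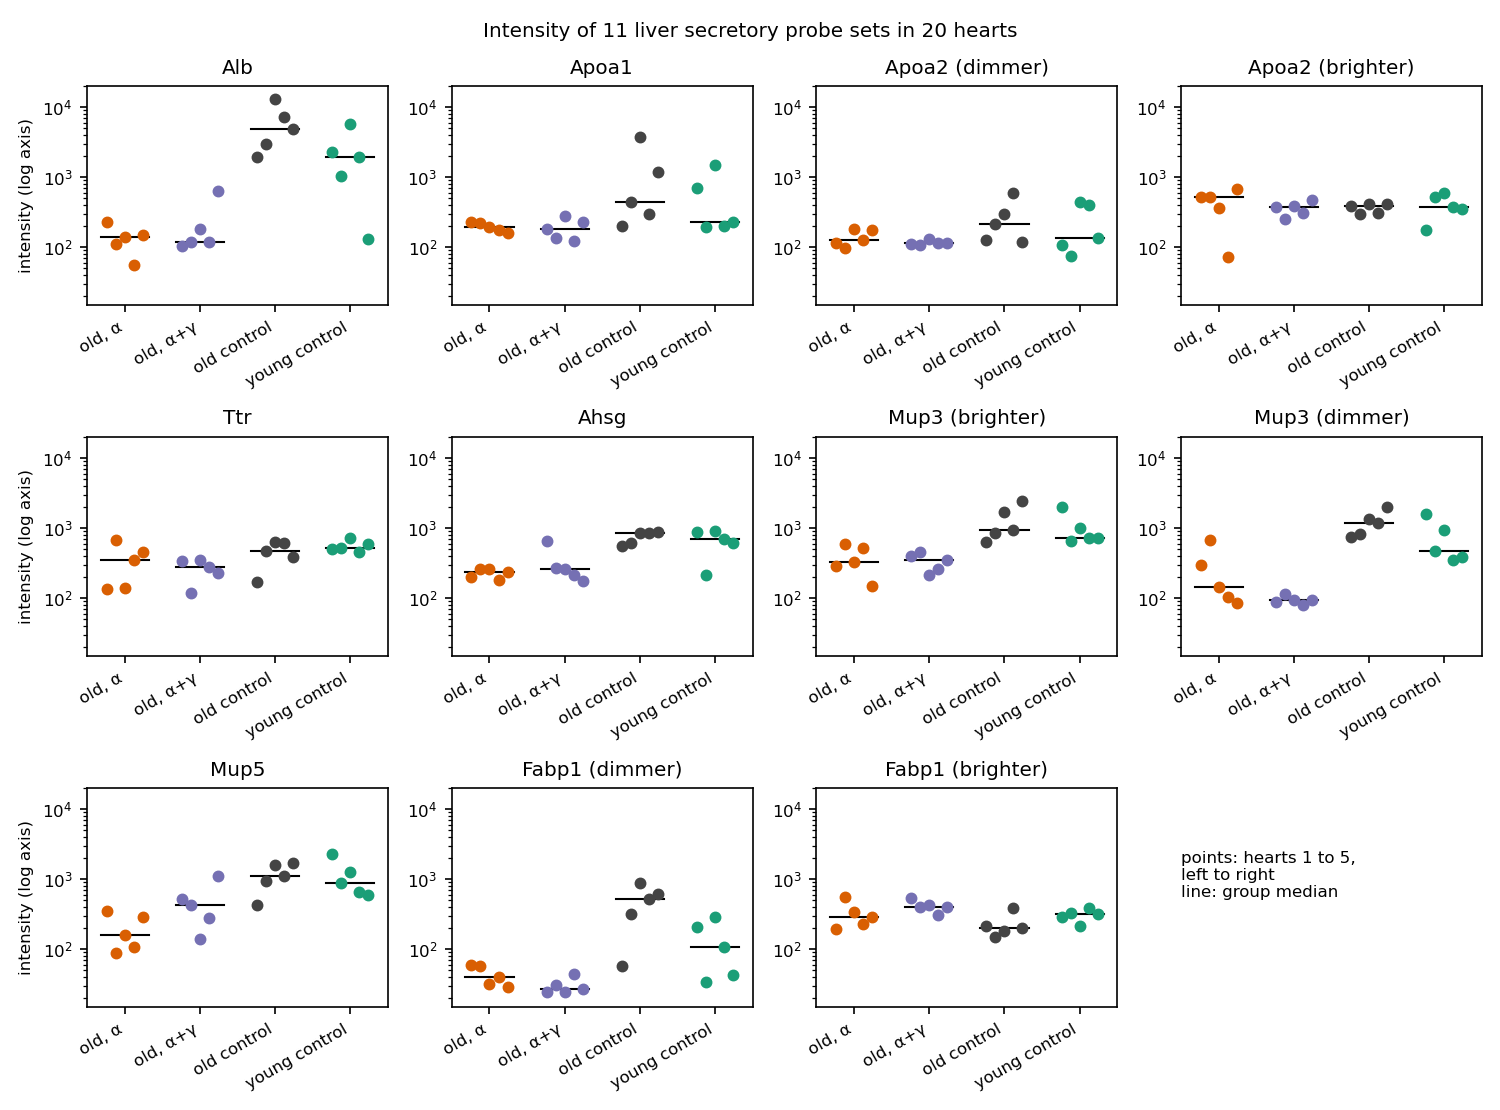
Intensity of the 11 probe sets (log axis) in each heart, with points for hearts 1 to 5 of a group from left to right and a line at the group median. Alb in the 10 supplemented hearts lies between 55.6 and 641, below the old controls at 1928 to 13004, while the brighter Apoa2 and Fabp1 probe sets do not share this pattern.

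Over the 11 probe sets, 5 had all alpha-tocopherol hearts below all old controls, namely Alb, Ahsg, Mup5 and both Mup3 probe sets. Of all 12422 probe sets, 6.15% did so. With both tocopherols 4 probe sets were below all old controls, namely Alb, both Mup3 probe sets and the dimmer Fabp1 probe set, where 3.36% of all probe sets were. None was above in either comparison. The members were chosen with these contrasts known, so nothing is read from these counts, and both comparisons use the same 5 old controls. Between the supplements 0 of 11 did not overlap, against 2.84% of all probe sets, and the widest differences of alpha- plus gamma-tocopherol hearts from alpha-tocopherol hearts were 0.97 ± 0.44 for Mup5 and -0.79 ± 0.42 for the dimmer Mup3 probe set. Between old and young controls 0 of 11 did not overlap, against 4.81% of all probe sets, and the differences ran between -0.38 ± 0.26 for the brighter Fabp1 probe set and 1.79 ± 0.64 for Alb. Only 7 of the 11 probe sets, for 6 genes, passed the filter on dim probe sets, which required a mean over all arrays of at least 362 on the intensity scale. Just inside lay the brighter Apoa2 probe set at 363, Ttr at 366 and the dimmer Mup3 probe set at 369.9, and just outside lay Apoa1 at 321 and the brighter Fabp1 probe set at 301.

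**Figure D2:**
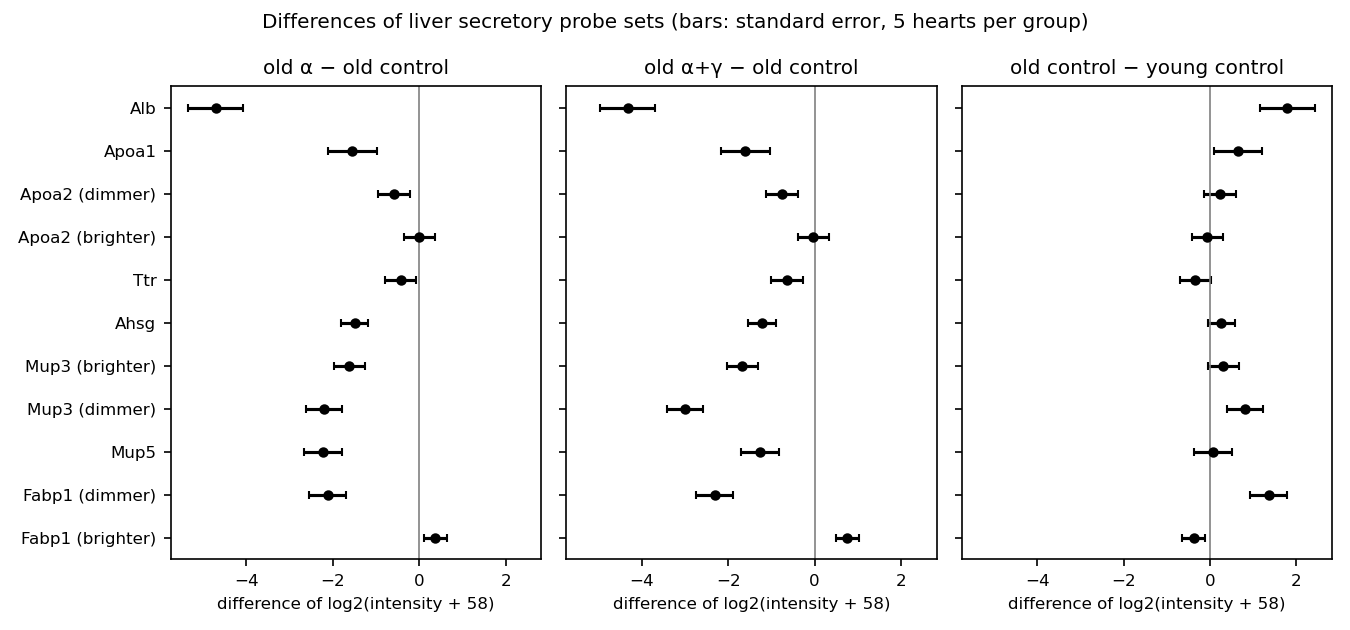
Difference of log2(intensity + 58) for each probe set, as points with bars of 1 standard error from the fit over 20 arrays, for alpha-tocopherol hearts minus old controls, alpha- plus gamma-tocopherol hearts minus old controls, and old minus young controls. Alb lies farthest from 0 in each panel, at -4.71, -4.33 and 1.79, and the brighter Fabp1 probe set lies above 0 in both supplement panels.

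Whether the members rose and fell together was described from the hearts within groups, by subtracting each group's mean from log2(intensity + 58) and correlating the 20 residuals, which share the array, its scaling and the 5 hearts of each group. With 1 probe set for each of 8 genes, the median Pearson r over 28 pairs was 0.20, with a standard error of 0.084 from leaving out each array in turn. Of these pairs 22 were above 0, 7 were above 0.4, and the range was -0.37 to 0.63. For Fabp1 and Apoa2 these pairs use the brighter probe set, whose r with Alb was -0.10 and 0.28. Over all 11 probe sets the median r was 0.26. Pairs of genes outside the members were not correlated in this way, so the medians and counts given here have nothing to be set against.

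The tightest pairs with Alb were the dimmer Fabp1 probe set, with r of 0.69 and Spearman rho of 0.63, Apoa1, with r of 0.63 and rho of 0.58, and Mup5, with r of 0.61 and rho of 0.69. Leaving out old controls 3 and 4, the arrays farthest from the median in Alb, gave r of 0.61, 0.65 and 0.58 for these pairs. The dimmer Apoa2 probe set had r of 0.49 with Alb, the Mup3 probe sets 0.27 and 0.41, Ahsg 0.19 and Ttr 0.14. The values were also taken by diet. The dimmer Fabp1 probe set and Alb had r of -0.04 in the 10 supplemented hearts, where both were dim, and 0.77 in the 10 unsupplemented ones. Mup5 was correlated with both Mup3 probe sets at -0.14 and -0.15 in the supplemented hearts and at 0.91 and 0.92 in the unsupplemented ones. Apoa1 and Alb had r of 0.52 in supplemented and 0.67 in unsupplemented hearts, and Mup5 and Alb 0.66 and 0.65. Among supplemented hearts, alpha- plus gamma-tocopherol heart 5 was highest in both Alb, at 641, and Mup5, at 1091. The r in supplemented hearts was not computed without this heart, so how far it rests on this heart is not known. Without young control 3, which is high in Alb and Apoa1, the r with Alb over 19 hearts was 0.62 for the dimmer Fabp1 probe set, 0.52 for Apoa1, 0.64 for Mup5 and 0.34 for the dimmer Apoa2 probe set.

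**Figure D3:**
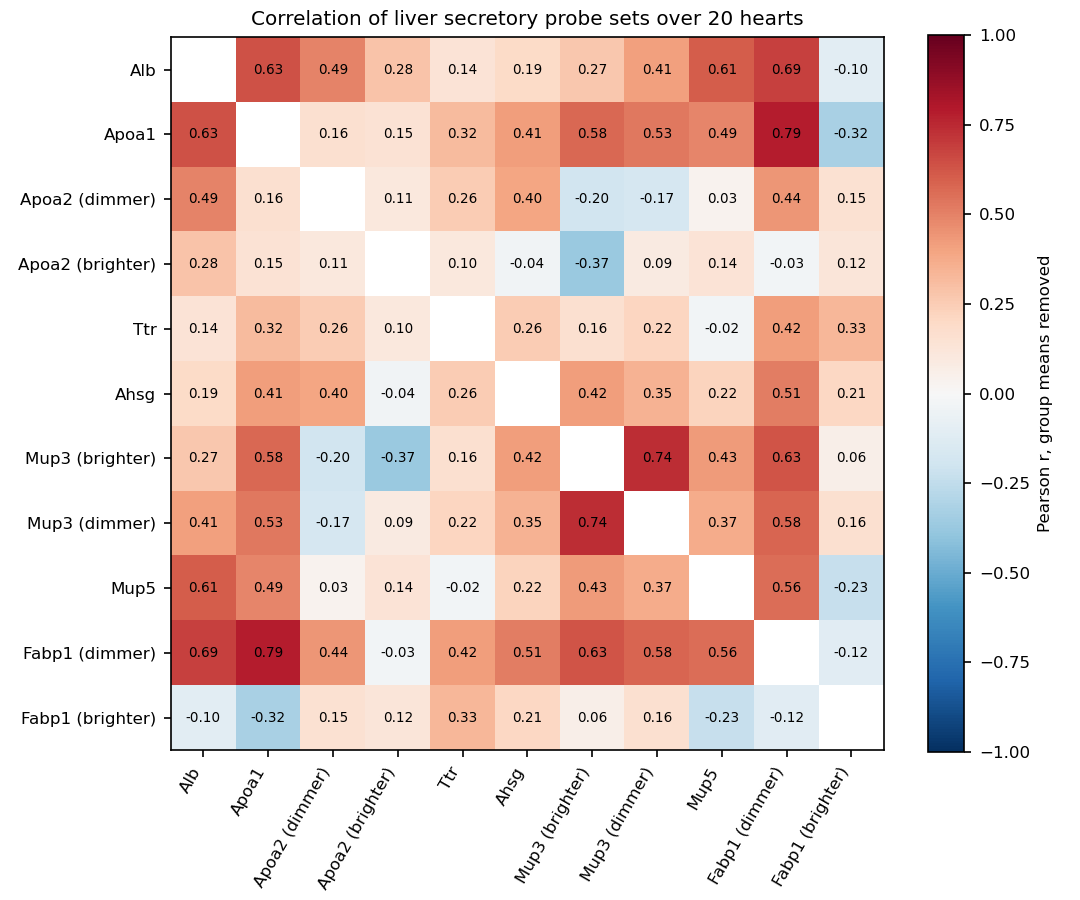
Pearson correlation between the 11 probe sets over 20 hearts after the group means were removed, with colour and number giving r. The dimmer Fabp1 probe set has r of 0.69 with Alb and 0.79 with Apoa1, while the brighter Fabp1 and Apoa2 probe sets reach r of at most 0.33 with any other.

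Liver makes many more proteins than these, and 178 further liver genes in 2 lists, 80 secreted and 98 intracellular, were looked up. The array held 129 of them, by 76 probe sets for secreted and 81 for intracellular products. Rbp4, the retinol carrier of plasma, had 202, 171, 126, 110.1 and 83.3 in alpha-tocopherol hearts and 201, 78.4, 74.4, 272 and 385 in alpha- plus gamma-tocopherol hearts, against 434, 697, 1792, 1169.5 and 1023 in old controls and 569, 416, 1494, 353 and 405 in young controls. Fga, the alpha chain of fibrinogen, had 135, 90.7, 140.1, 140.0 and 107 in alpha-tocopherol hearts and 129, 63.5, 115, 79.3 and 163 in alpha- plus gamma-tocopherol hearts, against 464, 449, 1053, 596 and 704 in old controls and 437, 226, 271, 383 and 112 in young controls. Both kept all supplemented hearts below all old controls, as Alb did, and were highest on the same array, old control 3.

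In a few intracellular enzymes of hepatocytes, old controls 3, 4 and 5 were highest of the old controls and in the order of Alb. Those given here were picked from 81 intracellular probe sets, and the share with this order was not counted. Uox, urate oxidase, had 22.4, 75.9, 632, 448 and 309 in old controls 1 to 5, and Cyp3a11, a cytochrome P450 of drug metabolism, had 42.9, 76.3, 637, 298 and 227. Arg1 and Cps1, enzymes of the urea cycle, had 65.2, 61.2, 809, 573 and 333 and 809, 616, 1461, 1172 and 863. In each of these, old control 3 was highest, followed by old control 4 and old control 5, the order Alb had. For Arg1 and Cps1 old control 1 lay above old control 2, unlike for Alb. Other enzymes of the list ran against Alb. In the 10 unsupplemented hearts Sult1b1 had r of -0.84 with Alb, Sult2a2 -0.82 and Hal -0.68. In the supplemented hearts Cyp3a11 lay between 20.8 and 44.9 and Uox between 18.9 and 205.

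Over the lists, 20 of 76 secreted probe sets (26.3%) had their highest value of all 20 arrays on old control 3, where 6.19% of all probe sets did, and 9 of 81 intracellular ones (11.1%) did. The share of secreted probe sets more than 1 log2 unit above their own median over the arrays was 30.3% on old control 3, 19.7% on old control 4 and 17.1% on old control 5, against 2.27%, 2.69% and 2.34% of all probe sets on these arrays. It was 13.2% on young control 3, against 4.98% of all, and between 1.32% and 7.89% on the 10 supplemented hearts. Of the intracellular probe sets 11.1% were this high on old control 3 and on old control 4, and 9.88% on old control 5, but so were 9.88% on alpha-tocopherol heart 2, with 1.23% to 9.88% over the 10 supplemented hearts, where 2.58% to 5.1% of all probe sets were. Most liver probe sets did not take part: on old control 3, 32 of 157 were more than 1 log2 unit above their median. By group, 39.5% of secreted and 17.3% of intracellular probe sets had their highest value in old controls, against 19.5% of all. In alpha-tocopherol hearts 31.6% and 38.3% did, against 35.7% of all. Summed intensities of the intracellular list were 52501 to 59064 in old controls, below all alpha-tocopherol hearts at 61300 to 67260.5, the reverse of Alb. They were 57983 to 67042 in alpha- plus gamma-tocopherol hearts and 57726 to 64393 in young controls, which overlap the old controls. Bright probe sets weigh most in such sums. The order is not particular to liver genes, as enterocyte sums were 3857 to 4853 in old controls and 7678 to 11290 in alpha-tocopherol hearts. Sums of the secreted list were 42564 to 65388 in old controls and 40739 to 50369 in alpha-tocopherol hearts.

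**Figure D4:**
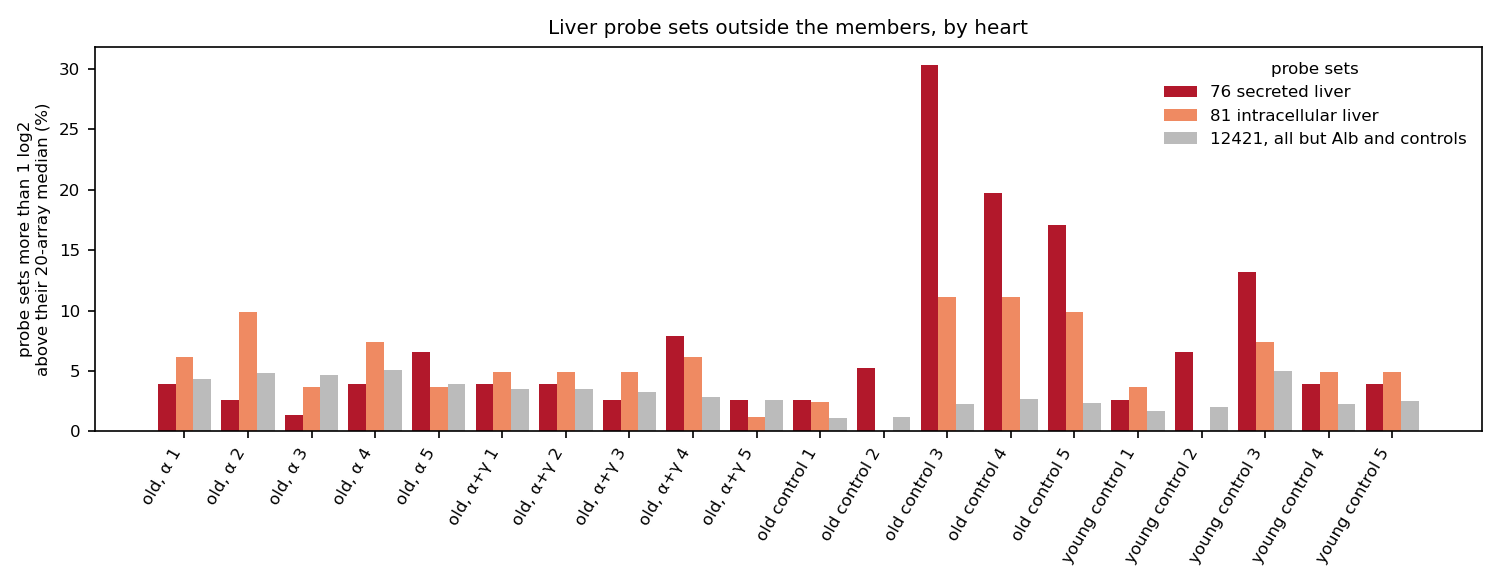
Share of probe sets (%) more than 1 log2 unit above their own median over the 20 arrays, for each heart, with bars for 76 secreted liver, 81 intracellular liver and all 12421 probe sets other than Alb and controls. The secreted bars stand at 30.3%, 19.7% and 17.1% on old controls 3, 4 and 5, against 2.27% to 2.69% of all probe sets there.

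Within groups, 13 of 76 secreted probe sets (17.1%) had r above 0.5 with Alb, as did 5 of 81 intracellular ones (6.17%) and 273 of all 12421 (2.2%). In the 10 supplemented hearts the shares were 13.2%, 7.41% and 6.79%, and in the 10 unsupplemented hearts 32.9%, 23.5% and 9.62%. The closest were Pon1, the paraoxonase of high density lipoprotein, with r of 0.76 and rho of 0.71, Cyp3a11 with 0.76 and 0.59, and Fga with 0.76 and 0.63; without old controls 3 and 4 their r was 0.77, 0.70 and 0.72. Others ran against Alb, among them Hal, histidine ammonia-lyase, with r of -0.61, and the sulfotransferase Sult1b1 with -0.59. Of markers of other cell types, 3 of 17 T cell probe sets (17.6%), 2 of 14 of secretory glands (14.3%) and 1 of 20 of skeletal muscle had r above 0.5 with Alb. None of 30 cardiomyocyte, 12 Kupffer cell (the macrophages of liver), 9 adipocyte, 8 erythroid, 12 enterocyte, 9 pancreatic acinar and 13 kidney tubule probe sets did. In the 10 unsupplemented hearts the share was 41.2% for T cells, 25.0% for Kupffer cells, 21.4% for secretory glands, 15.4% for kidney tubule, 11.1% for pancreatic acinar cells and 5.0% for skeletal muscle, so that each of these but skeletal muscle stood above the 9.62% of all probe sets, as the liver lists did.

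Young control 3 was high in Alb, Apoa1 and T cell transcripts alike. Without it, over 19 hearts, 9 of 76 secreted (11.8%) and 2 of 81 intracellular liver probe sets (2.47%) had r above 0.5 with Alb, where 1.69% of all did, and 0 of 17 T cell probe sets. Skeletal muscle had 2 of 20 and secretory glands 1 of 14, and the other cell types none. In the 9 other unsupplemented hearts the shares were 32.9% of secreted and 24.7% of intracellular probe sets, against 9.77% of all. Kidney tubule (30.8%, 4 of 13) and erythroid (25.0%, 2 of 8) probe sets stood above the intracellular list. T cells stood at 17.6%, secretory glands at 14.3% and skeletal muscle, with 2 of 20, just above all. Kupffer cells (8.33%) and cardiomyocytes (3.33%) lay below, and adipocyte, enterocyte and pancreatic acinar probe sets had none. Over 19 hearts without young control 3, Pon1, Cyp3a11 and Fga had r of 0.74, 0.67 and 0.85. The part of T cells and other cell types in these values was not tested.

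**Figure D5:**
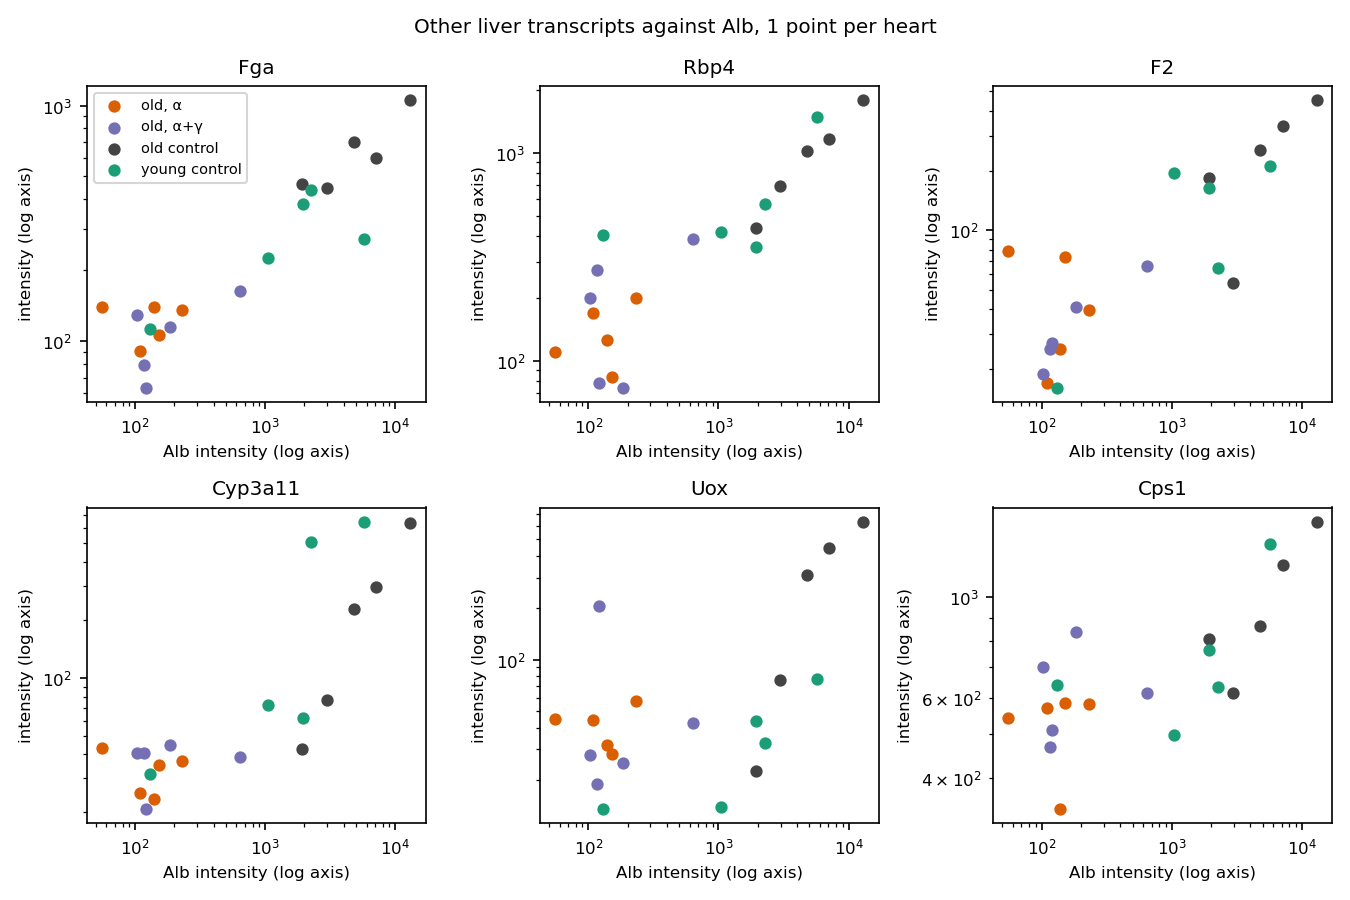
Intensity of 6 other liver transcripts against Alb (both log axes), with 1 point per heart coloured by group. The 6 were picked from the liver lists and do not stand for them. Of all 157 probe sets of the lists 18.5% were highest on old control 3, where 6.19% of all probe sets were. Old control 3, at an Alb intensity of 13004, is highest in every panel but that of Cyp3a11, where young control 3 lies just above it, and for Cyp3a11 the 10 supplemented hearts lie between 20.8 and 44.9.

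The further liver genes were tested with limma over all probe sets, with Benjamini-Hochberg adjustment and calls at an adjusted p below 0.05. In alpha-tocopherol hearts against old controls 13 of the 54 genes that passed the filter were called, 8 higher and 5 lower, which is 24.1%, where 21.7% of all 7453 tested probe sets were called. The median difference of the 54 was 0.17, against -0.02 for all tested probe sets. The 5 lower genes were 3 alpha-1-antitrypsin genes, whose probe sets share family sequence, Pzp, a protease inhibitor of plasma, and Cps1. Serpina1e differed by -1.34 ± 0.37 (limma adjusted p = 0.012), Serpina1b by -1.30 ± 0.37 (adjusted p = 0.016), Serpina1c by -0.68 ± 0.22 (adjusted p = 0.034), Pzp by -1.17 ± 0.28 (adjusted p = 0.0048) and Cps1 by -0.81 ± 0.25 (adjusted p = 0.024). Of 10 fits that each left out 1 heart of these groups, Serpina1c was lost in 6 (old controls 3, 4 and 5 and alpha-tocopherol hearts 2, 3 and 5), Cps1 in 3 (old controls 3 and 4 and alpha-tocopherol heart 3) and Serpina1b in 1 (alpha-tocopherol heart 3), while Pzp and Serpina1e were called in all.

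The 8 higher genes were 3 secreted and 5 intracellular. Cyp2b10, a cytochrome P450 induced by xenobiotics, had 1897, 771, 1564, 2153 and 2699 in alpha-tocopherol hearts, against 947, 918, 830.3, 374 and 882 in old controls, a difference of 1.10 ± 0.30 (limma adjusted p = 0.012). Saa2, an acute phase protein, was higher by 1.06 ± 0.32 on its brighter probe set (adjusted p = 0.020), where the other tested one differed by 0.11 ± 0.37 (adjusted p = 0.87), and Serpinf2, which encodes alpha-2-antiplasmin, by 0.94 ± 0.15 (adjusted p = 0.00018). Nr1i3, the nuclear receptor CAR that regulates Cyp2b10 in liver, was higher by 0.65 ± 0.16 on the brightest of its 3 tested probe sets (adjusted p = 0.0065). The others disagreed, at 0.29 ± 0.20 (adjusted p = 0.32) and -0.34 ± 0.32 (adjusted p = 0.47). Cp, Baat, Fah and Gstp1 were also higher, by 0.35 to 0.63. Leaving out 1 heart lost the call of Baat in 4 fits (old controls 1 and 2 and alpha-tocopherol hearts 4 and 5), of Gstp1 in 3 (old controls 4 and 5 and alpha-tocopherol heart 5) and of Saa2 in 2 (old control 3 and alpha-tocopherol heart 3). Over all 7453 tested probe sets 666 were higher and 953 lower. With the level of the hybridization controls as a covariate limma called 1 of the 54 (1.85%), against a share of 1.93% over everything tested. The 18S level as covariate left 0 called by limma, against a share of 1.91% over everything tested. At an unadjusted limma p below 0.05 there were 15 of the 54, and the share of all probe sets at that threshold was not counted.

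Most plasma protein transcripts were too dim to pass the filter. Without it, 22 of 129 genes were called with alpha-tocopherol, 9 higher and 13 lower, or 17.1%, where 13.3% of all probe sets were. Of the 61 secreted genes 11 were lower and 3 higher, where 7.33% of all probe sets were lower and 5.97% higher. The genes added below old controls included Rbp4 at -2.36 ± 0.40 (limma adjusted p = 0.00052), Fga at -1.93 ± 0.29 (adjusted p = 0.00020), Hamp, the iron hormone hepcidin, at -1.75 ± 0.43 (adjusted p = 0.0088), F2, prothrombin, at -1.45 ± 0.37 (adjusted p = 0.012) and Uox at -1.44 ± 0.45 (adjusted p = 0.035). Fgb and Fgg, the other fibrinogen chains, were lower by 1.01 and 1.10, and Hnf4a was higher by 0.82 ± 0.22 (adjusted p = 0.017). Not all of the lower genes followed Alb within groups. There Fga had r of 0.76 with Alb, Fgb 0.68, F2 0.67, Rbp4 0.67 and Uox 0.51, but Fgg had 0.03 and Hamp -0.20. Rbp4, Fga, Hamp, F2 and Hnf4a were called in all 10 fits that left out 1 heart, whereas Uox was lost in 7 (old controls 3 to 5 and alpha-tocopherol hearts 2 to 5), Fgg in 6 (old controls 2, 3 and 5 and alpha-tocopherol hearts 1, 4 and 5) and Fgb in 2 (old controls 3 and 5). The count of 22 also moved: it was 12 (9.3%) without old control 3, where 12% of all probe sets were called, and 14 (10.9%) without old control 4, where 10.2% were. Without the filter 1 of 129 genes (0.775%) was called with either covariate, where 0.636% of all probe sets were with the hybridization controls and 0.805% with the 18S level.

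In alpha- plus gamma-tocopherol hearts against the same old controls 4 of 54 liver genes were called (7.41%), where 6.43% of all tested probe sets were, and the median difference was 0.15, against -0.01 for all. Cyp2b10 had 2990.3, 1693, 2323, 2346 and 1578, above every old control, a difference of 1.43 ± 0.30 (limma adjusted p = 0.0068). Fah, the last enzyme of tyrosine breakdown, was higher by 1.04 ± 0.15 (adjusted p = 0.00032) and Serpinf2 by 0.66 ± 0.15 (adjusted p = 0.012). Pzp differed by -0.93 ± 0.28 (adjusted p = 0.048) and was not called in 9 of the 10 fits that left out 1 heart of these groups. Without the filter 7 of 129 were called (5.43%), where 3.28% of all probe sets were, and the 4 lower genes were Rbp4 at -2.08 ± 0.40 (adjusted p = 0.0061), Fga at -2.05 ± 0.29 (adjusted p = 0.00058), F2 at -1.59 ± 0.37 (adjusted p = 0.022) and Hamp at -1.62 ± 0.43 (adjusted p = 0.038). Rbp4 and Fga were called in all 10 fits that left out 1 heart, F2 was lost in 3 (old controls 3 and 4 and supplemented heart 1) and Hamp in 7 (old controls 3 to 5 and supplemented hearts 1, 2, 3 and 5). All 4 are secreted, which made 4 of 61 secreted genes lower (6.56%), where 2.03% of all probe sets were. These counts use the brightest probe set of each gene. On another probe set, Slc10a1 of the intracellular list and Serpina1c were called lower too. Each of these 2 calls was lost in 7 of the 10 fits that left out 1 heart. With either covariate and no filter, limma called 6 of 129 genes (4.65%) in this comparison. The shares of all probe sets were 1.38% with the hybridization controls and 2.05% with the 18S level.

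Between the supplements 0 of 54 liver genes were called by limma, where 0.564% of all tested probe sets were called. Without the filter 0 of 129 were called by limma, where 0.0886% of all probe sets were. At an unadjusted limma p below 0.05 there were 8 of the 54 and 14 of the 129. The share of all probe sets at that unadjusted threshold was not counted, so these 2 counts have nothing to be set against. Between old and young controls 1 of 54 was called (1.85%), where 4.94% of all tested probe sets were. It was Cyp2e1, a cytochrome P450 induced by ethanol, which was lower in old controls by 0.65 ± 0.18 (limma adjusted p = 0.035), and the call was lost without old control 1, 2 or 4 and without young control 1 or 3. Without the filter 0 of 129 were called for age by limma, where 2.33% of all probe sets were, and leaving out old control 1 gave 2. An unadjusted limma p below 0.05 was found for 16 of the 129, again with no share over all probe sets counted.

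The tested genes most like Alb within groups, over 20 hearts, were mostly outside the liver lists. They were Arpc4, Sqle, Rps4l, Numa1, Trip6, Ces2g, Zbtb22, Arpc2, Serpina1b and Cftr, with r between 0.69 and 0.76. Serpina1b was the one member of the liver lists among them. These lists hold only 59 of the 7453 tested probe sets, so nothing is read from how few of them rank this high. With the group means kept, where the difference between supplemented and control hearts enters, the most like were Ptov1, Pdcd6ip, Cfap20, Rab2a, Snx3, Tubb2a, Lgmn, Anxa1, Ppp2cb and Imp3, with r between 0.83 and 0.88 and none in the liver lists. These transcripts varied far less than Alb: Arpc4 ran between 2711 and 6226 and Ptov1 between 694 and 2204 over all hearts. Dim probe sets that failed the filter were left out of both rankings, though some of the liver lists reached as high. Within groups Pon1 had r of 0.76 with Alb. With the group means kept Fga had 0.93 and Rbp4 0.91, while Hnf4a had -0.44.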

How the data were processed

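Polyadenylated RNA of each heart was labelled and hybridized to 1 array, per the labels' protocols. The authors deposited a linear intensity for each probe set, and the labels name no software for it (not given in the sources used here). The arrays have the same mean once 2% is trimmed at each end, so that levels are relative to the whole array. No detection calls were used, and the number of arrays limits the precision.

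Values were taken as log2(intensity + 58), where 58 lies near the 10th percentile of all values. Control probe sets (66) were dropped, as were 40% of the remainder with the lowest means, leaving 7453. With limma 3.58.1 (R 4.3.3), a model of 4 group means was fitted to the 20 arrays, using eBayes with a variance trend and the robust option. Adjusted p-values are two-sided, by the Benjamini-Hochberg method over every probe set tested. The brightest tested probe set stood for each gene of the lists. Correlations were computed in Python 3.11.15, with 28 pairs for the 8 genes present. The steps were tested on simulated data.

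The members and the lists of liver genes and cell type markers were chosen with earlier results of these data known. Named are all member probe sets, called liver genes with the largest differences (up to 8 per comparison, with others named after their values were seen), the 10 tested genes most like Alb with and without group means removed, and a few markers of heart, T cells and hepatocytes. Same-numbered animals of different groups are not paired by the labels, and correlations of their deviations lay between -0.08 and 0.10. Alternatives were other pseudocounts, filters, scalings and covariates, a replicate block and leaving out hearts.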

Additional observations from a re-analysis of the deposited data

Results flagged for a closer look

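In groups of 5 hearts, 1 heart was called apart from the others by Dixon's test at the 95% level. Over 37 probe sets and 148 groups, 11 groups held such a heart, and chance gives about 1 in 20 groups. Among the 44 groups of the members there was 1: Alb was 641.0 in alpha- plus gamma-tocopherol heart 5, where the 4 others lay between 102.7 and 183.6. The same heart was highest for Fgb, at 90.2, where the others lay between 24.2 and 33.4. Alpha- plus gamma-tocopherol heart 1 was high for the dimmer Serpina1c probe set, at 495.1, and heart 2 for Ces1c, a carboxylesterase of plasma, at 338.0 and for Uox at 204.8, while heart 3 was low for Serpina1e at 593.2. In alpha-tocopherol hearts, Hamp was high in heart 1 at 472.1, where the others lay between 87.5 and 145.3, and Cps1 was low in heart 3 at 341.4. In old controls, Ces1c was low in heart 1 at 61.3, Cyp2b10 in heart 4 at 374.4 and Nr1i3 in heart 5 at 983.5.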

How the results depend on the processing

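Under the alternatives run, member differences turned sign only where they lay between -0.43 and 0.38. The widest such shifts came with hybridization controls as covariate, which gave 0.16 in place of -0.43 for Ttr with alpha-tocopherol and -0.66 in place of 0.38 for Alb between the supplements. Of the differences of members recomputed under alternatives, 917 moved by less than the spread between replicates and 7 moved by more: with alpha-tocopherol, Alb, Mup5 and the brighter Apoa2 probe set (0.69) with hybridization controls as covariate, Mup5 with the 18S covariate and the dimmer Fabp1 probe set with a pseudocount of 200, and with both tocopherols the dimmer Fabp1 and Mup3 (-2.21) probe sets with that pseudocount. Without old controls 1 and 4, the number of member probe sets that did not overlap was 2 for age, 1 higher and 1 lower. It was 7 with alpha-tocopherol, all lower, and 7 with both tocopherols, 1 higher and 6 lower. Leaving out each heart in turn gave 0 to 1 for age, 5 to 7 with alpha-tocopherol, 4 to 6 with both tocopherols and 0 to 0 between the supplements. Smaller groups overlap less easily, and the share over all probe sets was not counted for these settings, so nothing is read from them. The median correlation within groups was 0.39 with group means kept, 0.32 in the 10 unsupplemented hearts, 0.15 without old control 3 and young control 3, and 0.16 to 0.23 without 1 heart.

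Counts of called liver genes are of 54 unless stated, and brackets give the share of all probe sets called in that setting. For age 0 were called with no filter on dim probe sets (of 129, 2.33%) or with no variance trend (4.11%). There were also 0 without old controls 1 and 4 (2.01%), or without old control 3 and young control 3 (4.84%). The count was 2 with a pseudocount of 200 (4.99%), the dimmest 60% left out (of 26, 8.51%) or quantile normalization (5.13%). It was also 2 with the 18S covariate (5.14%) or the replicate block (4.66%). Array weights gave 4, or 7.41% (9.81%), and the compared groups alone 5, or 9.26% (4.9%). With alpha-tocopherol the counts were 22 of 129 with no filter (13.3%) and 7, or 13%, without old controls 1 and 4 (13.2%). They were 1 with hybridization controls as covariate (1.93%) and 0 with the 18S covariate (1.91%). With both tocopherols the counts were 7 of 129 with no filter (3.28%) and 2 without old controls 1 and 4 (2.17%). They were 3 with hybridization controls as covariate (3.25%) and 4 with the 18S covariate (4.62%). The replicate block gave 14 with alpha-tocopherol (21.2%), 4 with both tocopherols (6.05%) and 0 between the supplements (0.456%). Animals of a block share only a number. Leaving out each heart in turn gave 0 to 1 for age (3.46% to 4.92%) and 9 to 16 with alpha-tocopherol (15.8% to 20.9%). It gave 3 to 5 with both (3.53% to 6%) and 0 to 1 between the supplements (0% to 1.06%). With no filter, of 129, leaving out old controls 1 and 4 gave 1 for age (0.998%), 13 with alpha-tocopherol (6.83%) and 4 with both (0.886%). Either covariate gave 1 with alpha-tocopherol (0.636% and 0.805%) and 6 with both tocopherols (1.38% and 2.05%). Omission of each heart gave 0 to 2 for age (1.71% to 2.5%) and 12 to 21 with alpha-tocopherol (9.66% to 12.7%). It gave 5 to 10 with both (1.75% to 2.79%) and 0 to 1 between the supplements (0% to 0.451%). The cause of these shifts was not tested; the covariates separate the alpha-tocopherol hearts from the old controls. The omission of old control 3 with young control 3, that of young control 3 from correlations, the parts of the hearts used for correlations and all combinations with no filter were chosen after seeing the data.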
